A study of Mus musculus with 4 samples.

Results

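The S100 calcium-binding proteins are described here in cultured mouse oesophageal cells. The group consists of 10 genes, S100a1, S100a4, S100a6, S100a8, S100a9, S100a10, S100a11, S100a13, S100a14 and S100a16, chosen by symbol among the 24444 genes of the deposited table. All 10 have a row there. Poly(A) RNA was sequenced from cells carrying the E79Q substitution of Nfe2l2 on 1 allele, per the HET label (2 libraries, named E79Q here), and from wild-type cells without it (2 libraries, WT). Nfe2l2 encodes NRF2, the transcription factor of antioxidant and detoxification genes. All cells are labelled C57BL/6J. The treatment label of the E79Q cells is CRISPR/Cas9 microinjection and their cassette is Nfe2l2-E79Q, and the WT cells carry no cassette. The column names of all 4 libraries hold the word SV40, which the labels do not explain. The sources used here give neither age nor sex, nor whether the 2 libraries of a genotype came from separate animals or cultures, so the p-values measure only the spread between these libraries.

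S100 proteins are small proteins with a pair of EF-hands, the helix-loop-helix motif that holds calcium. They work mostly as dimers, and calcium opens a surface that grips a target protein such as an annexin, a myosin or a receptor. Most of their genes lie in a cluster within the epidermal differentiation complex, together with genes of the cornified envelope, and stratified epithelia express many of them. Some members, with S100A8 and S100A9 as the best known, are also released and act on receptors of immune and epithelial cells.

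In E79Q cells, the members S100a6, S100a10 and S100a11 were lower than in WT cells and S100a14 was higher, with approximate normalised count ratios of 0.802 for S100a6, 0.819 for S100a11, 0.870 for S100a10 and 1.21 for S100a14 (E79Q over WT, n = 2 pairs). S100a13 was lower as well, with a ratio of 0.713. Of the 10 members, 7 passed the filter on low values and were tested, of which 4 were called lower and 1 higher, while S100a1 and S100a16 were not called. Over all 10857 genes tested, 40.4% were called, 18.9% as lower and 21.5% as higher. The median difference was -0.19 over the 7 tested members and 0.0062 over all genes tested, and the median absolute difference was 0.21 over the members and 0.121 over all genes tested, on the deposited log2 scale. Genotypes did not overlap in 6 of the 7 tested members, against 79.2% of all genes tested, with E79Q lower in 5 (38.1% of all genes) and higher in 1 (41.1%). The values were centred by replicate number before deposit, so not overlapping is the same as both pairs having one direction. Libraries before centring may overlap. These are bulk libraries, in which fewer cells of a type and less RNA per cell cannot be told apart.

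The libraries and the comparison were checked first. Depth, estimated from the value of 1 read in genes seen in a single library, was about 15150000 and 13010000 reads in E79Q and 14150000 and 12610000 reads in WT. The 6 NRF2 target genes used as a check were all called higher, and Nqo1, a quinone reductase, had values of 10.88 and 10.87 in E79Q, against 8.64 and 8.65 in WT. Nfe2l2 itself had 11.17 and 11.27 in E79Q and 11.38 and 11.27 in WT, and a substitution need not change its level. All 10 keratinocyte markers were high enough to test. Of the 15 neutrophil and myeloid markers 9 were at the floor of the table in every library, Ptprc, Ly6g and Mpo among them, and all 6 lymphocyte markers were at the floor. Xist had 7.30 and 7.12 in E79Q and 11.99 and 12.17 in WT, while Y-linked genes such as Ddx3y were present in every library. Ddx3y (0.54 ± 0.07, limma adjusted p = 1.14e-05) and Uty (0.31 ± 0.07, limma adjusted p = 0.00158) were called higher in E79Q. The Y-linked genes Kdm5d and Eif2s3y were not called. Genotype and whatever these sex-linked differences reflect cannot be told apart.

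**Figure D1:**
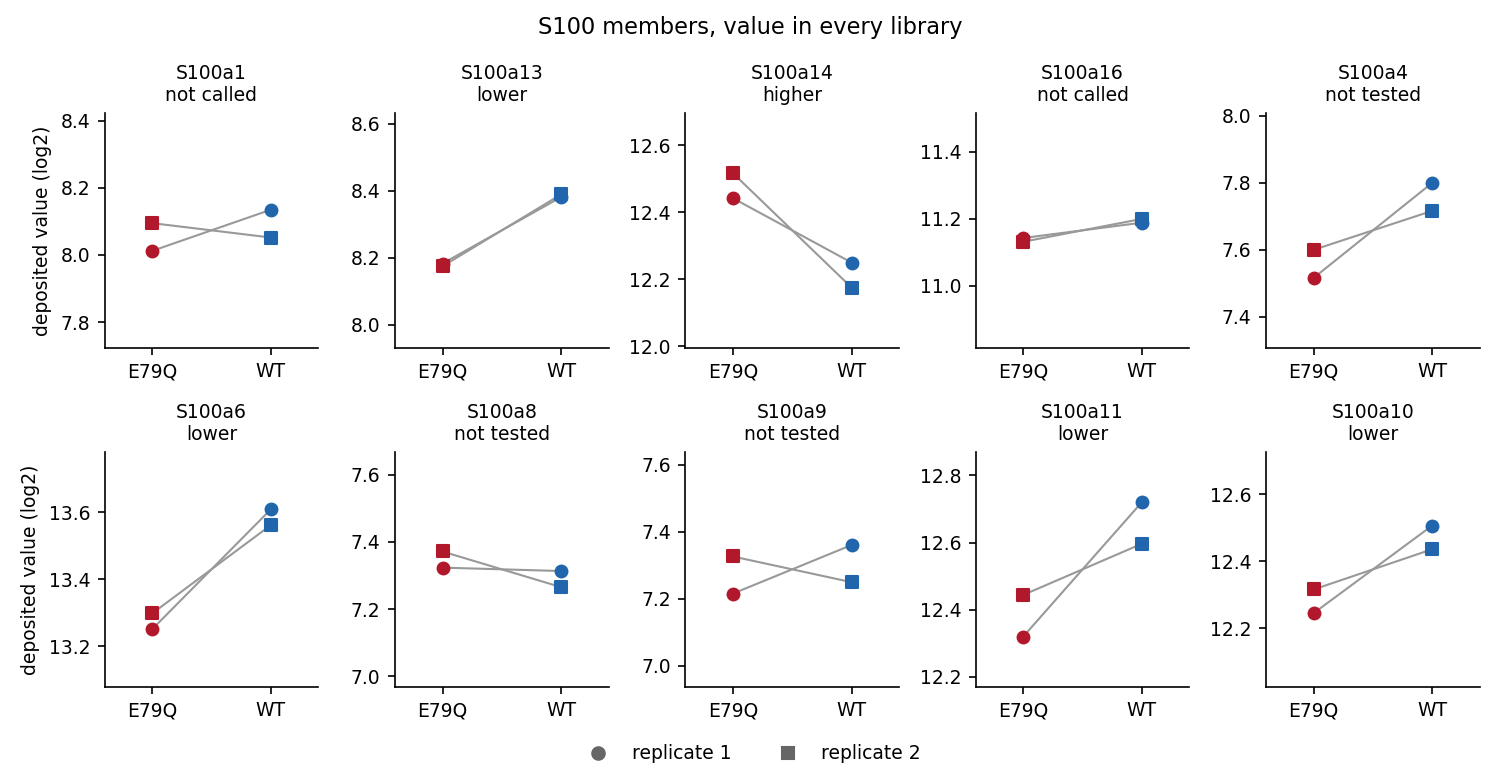
Deposited variance-stabilised value (log2) of each S100 member in every library, in the members' order along the chromosome. Circles are replicate 1, squares replicate 2, and grey lines join the E79Q and WT libraries of one replicate number. Each panel spans the same 0.7 log2 units around its own middle. S100a6, S100a11, S100a10 and S100a13 lie lower in E79Q in both pairs and S100a14 lies higher, whereas the 2 pairs of S100a1 and of S100a9 point in opposite directions.

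S100a6 encodes calcyclin, a protein of proliferating epithelial and mesenchymal cells. Its values were 13.25 and 13.30 in E79Q and 13.61 and 13.56 in WT, which correspond to about 9495 and 9818 normalised counts in E79Q and 12235 and 11835 in WT. Both E79Q libraries lay below both WT libraries. The difference was -0.31 ± 0.04 (SE, n = 2 pairs, limma adjusted p = 4.89e-05), the widest of the tested members on the deposited scale, and the pairs gave -0.36 and -0.26. Among all genes tested, 13.5% had a larger absolute difference.

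S100a11 and S100a10 are neighbours, apart from the other 8 members along the chromosome, and encode the S100 proteins best known as annexin partners. S100A11 pairs with annexin A1, and S100A10 forms a tetramer with annexin A2 without needing calcium. S100a11 had values of 12.32 and 12.44 in E79Q, against 12.72 and 12.60 in WT. S100a10 had 12.25 and 12.32 in E79Q and 12.51 and 12.44 in WT. In both genes the 2 genotypes did not overlap. S100a11 differed by -0.28 ± 0.05 (limma adjusted p = 0.000815) and S100a10 by -0.19 ± 0.05 (limma adjusted p = 0.00504), n = 2 pairs each. The 2 pairs differed in size, with -0.40 and -0.15 for S100a11 and -0.26 and -0.12 for S100a10.

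S100a14, found mainly in epithelia, was the only tested member called higher. Its values were 12.44 and 12.52 in E79Q and 12.25 and 12.18 in WT, or about 5317 and 5612 normalised counts in E79Q and 4624 and 4378 in WT. The 2 genotypes did not overlap. The difference was 0.27 ± 0.05 (n = 2 pairs, limma adjusted p = 0.000421), with 0.19 and 0.34 in the pairs. Its neighbour S100a16, a broadly expressed member, had 11.14 and 11.13 in E79Q, against 11.19 and 11.20 in WT. S100a16 was not called, at -0.06 ± 0.05 (limma adjusted p = 0.374, 95% interval -0.16 to 0.05). A model without the replicate block, which called 55.3% of all genes tested, called S100a16 lower (limma adjusted p = 0.0293), and its adjusted p ran from 0.0293 to 0.450 over the alternatives.

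S100a13, which takes part in the unconventional release of FGF1 and interleukin-1 alpha, was expressed at a low level. It had 8.18 and 8.17 in E79Q and 8.38 and 8.39 in WT, or about 93.1 and 91.9 normalised counts in E79Q and 129 and 131 in WT. The pairs were close to each other, with -0.20 and -0.21, and the difference was -0.21 ± 0.07 (n = 2 pairs, limma adjusted p = 0.0288). Without the filter on low values it was no longer called (limma adjusted p = 0.0519), and over the alternatives its adjusted p ran from 0.00398 to 0.0519. The deposited scale compresses low genes, and on log2(normalised count + 1) the difference of S100a13 was -0.48, wider than that of S100a6 at -0.32. S100a1, a regulator of calcium cycling in muscle, overlaps S100a13 head to head in the RefSeq gene table. The sources used here do not give the strand setting of the counting, so reads in the overlap cannot be assigned with certainty. S100a1 had 8.01 and 8.10 in E79Q and 8.13 and 8.05 in WT. Its genotypes overlapped, so its pairs pointed in opposite directions, with -0.12 and 0.04 (difference -0.04 ± 0.08, limma adjusted p = 0.706, 95% interval -0.20 to 0.12).

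**Figure D2:**
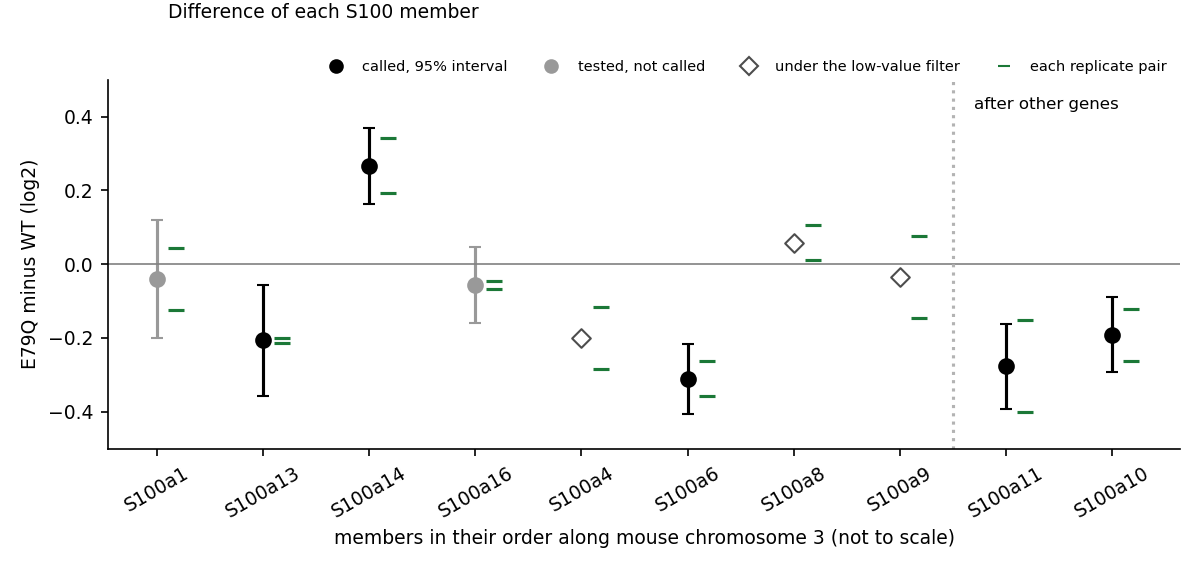
Difference, E79Q minus WT (log2), of each member in its order along mouse chromosome 3, not to scale. Black and grey circles are called and uncalled tested members with 95% intervals of the limma fit, diamonds are members under the filter on low values, and green dashes are the 2 pairs. S100a14 at 0.27 stands between S100a13 at -0.21 and S100a16 at -0.06.

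The remaining 3 members, S100a4, S100a8 and S100a9, lay under the filter, which asks for a value of at least 7.90 in at least 2 libraries. S100a1, at 8.01 to 8.13, was the member just above it and S100a4 the one just below. S100a4, linked to cell motility and a binder of non-muscle myosin, had 7.52 and 7.60 in E79Q and 7.80 and 7.72 in WT. These stand for about 17.8 and 23.8 normalised counts in E79Q and 42.0 and 33.7 in WT, and the genotypes did not overlap. When all 16324 genes that vary were fitted, of which 23.5% were called, S100a4 was not called (-0.20 ± 0.08, limma adjusted p = 0.0970).

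S100a8 and S100a9 encode the subunits of calprotectin, which neutrophils hold in large amounts and which stressed keratinocytes can produce. S100a8 had 7.32 and 7.37 in E79Q and 7.31 and 7.27 in WT, about 7.27 and 9.45 normalised counts in E79Q and 6.85 and 5.02 in WT, with both E79Q libraries just above both WT libraries. S100a9 had 7.22 and 7.33 in E79Q and 7.36 and 7.25 in WT, about 3.42 and 7.37 normalised counts in E79Q and 8.90 and 4.47 in WT, and its genotypes overlapped. One normalised count is worth close to 1 read, so both genes rest on about 10 reads a library or fewer. Neither was called without the filter (limma adjusted p = 0.619 and 0.805). The 10 keratinocyte markers had summed normalised counts of 153245 and 160242 in E79Q and 158592 and 151985 in WT, whereas the 15 myeloid markers had 48.9 and 47.0 in E79Q and 83.3 and 86.0 in WT. Ltf, lactoferrin, was the only myeloid marker tested and was called lower (-0.33 ± 0.07, or -1.03 on log2(normalised count + 1), with mean normalised counts of 38.5 in E79Q and 79.4 in WT). The part of these lists in the S100a8 and S100a9 values was not tested.

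Other genes of the family contributed little. S100a2, S100a5 and S100g were at the floor in all 4 libraries, a count of 0. Such a count allows an expected count of up to 3 reads per library, a limit that covers counting error only. S100a3, S100a7a, S100b and S100z were above the floor in some libraries but under the filter, with values between 6.95 and 7.55 and overlapping genotypes. Of the fused S100 genes, which join an S100 domain to long repeats in structural proteins of the epidermis, 6 have a row and 3 of these, Flg2, Hrnr and Tchhl1, were at the floor. Tchh, trichohyalin, was the only one tested, with 8.55 and 8.50 in E79Q and 8.56 and 8.61 in WT (-0.06 ± 0.07, limma adjusted p = 0.534). Rptn had 7.38 and 7.22 in E79Q and 7.05 and 7.22 in WT, and Crnn, the oesophageal protein cornulin, had 7.15 and 7.16 in E79Q and 6.98 and 6.97 in WT. Rptn reached 9.91 normalised counts at most and Crnn 2.05.

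Levels were compared between members per length of transcript, as mean normalised count over the 4 libraries per kilobase of the median GENCODE basic coding transcript. S100a6 was highest at 18152 per kilobase, followed by S100a11 at 11070, S100a10 at 8744, S100a14 at 5446 and S100a16 at 2274. S100a13 at 155, S100a1 at 122 and S100a4 at 58.9 formed a low tier, and S100a8 at 14.7 and S100a9 at 11.7 were lowest. The per-kilobase levels of S100a11 (9516 and 10414 in E79Q, 12719 and 11630 in WT) and S100a10 (7929 and 8349 in E79Q, 9589 and 9111 in WT) overlapped across libraries, although S100a11 was above S100a10 within each of the 4. Those of S100a8 and S100a9 overlapped too, as did those of S100a13 (128 to 183) and S100a1 (108 to 136). The choice of transcript moved S100a14 between 4705 and 10316 per kilobase, S100a10 between 7417 and 10651 and S100a6 between 14837 and 23375. The ranges of S100a14 and S100a10 overlapped. Before any correction for length, the members together held 26487 and 27813 normalised counts in E79Q and 31290 and 29804 in WT, or 0.194% and 0.1997% of all counts in E79Q and 0.228% and 0.221% in WT. S100a6 made up 35.8% and 35.3% of the members' counts in E79Q and 39.1% and 39.7% in WT.

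**Figure D3:**
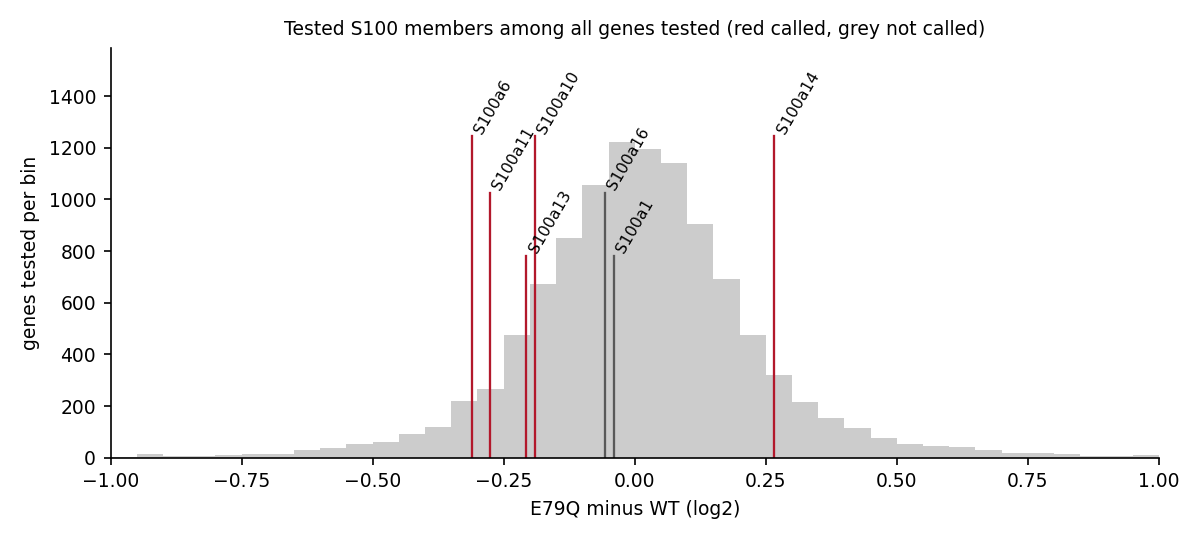
Differences, E79Q minus WT (log2), of all genes tested as a histogram in bins of 0.05, with the 7 tested S100 members as lines, red where called and grey where not. Genes beyond 1 in either direction (77 genes) are not drawn. The called members lie in the shoulders of the distribution, between -0.31 and 0.27.

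Promoter windows from RefSeq (GRCm38.p6) were found for 8 of the 10 members, all but S100a10 and S100a14, as 9 windows of 300 bases that end 50 bases after the start site. Each was searched on both strands for TGACNNNGC, the core of the antioxidant response element that NRF2 binds with small MAF proteins, and for TGANTCA, the AP-1 site, which reads the same on both strands. A run can match both motifs. TGACNNNGC stands in 12.4% of 32817 promoter windows of this length and TGANTCA in 7.81%. Among the 9 windows, TGACNNNGC was found in 1, the upstream window of S100a16, at positions -26 to -18 on the reverse strand. TGANTCA was found in 2, the downstream window of S100a16 and that of S100a11, which holds the site at -136 to -130 and again at -38 to -32. The windows of S100a6, S100a13, S100a1, S100a4, S100a8 and S100a9 held neither. A match is a description of the sequence, and a window without one says only that these letters are not in it. The 250 bases before the start site are printed for S100a6, the tested member with the widest difference on the deposited scale, for S100a11, with its pair of AP-1 matches, and for S100a16, with the only match to the antioxidant response element core. All are on the plus strand and given 5′ to 3′, and capitals mark the matches.
S100a6, chr3:90612644-90612893: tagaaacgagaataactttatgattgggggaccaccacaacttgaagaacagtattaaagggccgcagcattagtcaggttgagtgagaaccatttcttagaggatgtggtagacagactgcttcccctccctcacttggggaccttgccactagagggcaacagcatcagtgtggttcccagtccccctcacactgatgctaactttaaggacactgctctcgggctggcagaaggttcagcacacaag
S100a11, chr3:93520246-93520495: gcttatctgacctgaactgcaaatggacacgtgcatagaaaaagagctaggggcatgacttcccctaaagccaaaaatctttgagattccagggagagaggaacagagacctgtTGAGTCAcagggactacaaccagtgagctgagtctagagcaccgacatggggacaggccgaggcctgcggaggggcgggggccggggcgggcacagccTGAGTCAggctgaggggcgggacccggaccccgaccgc
S100a16, chr3:90537004-90537253: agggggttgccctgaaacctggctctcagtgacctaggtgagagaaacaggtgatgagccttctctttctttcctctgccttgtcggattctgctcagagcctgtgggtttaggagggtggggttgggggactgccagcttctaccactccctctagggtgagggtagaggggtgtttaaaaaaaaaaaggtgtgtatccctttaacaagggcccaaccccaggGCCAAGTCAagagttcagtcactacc

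Annexins are the calcium-dependent membrane binders that S100 proteins hold. Of 12 annexin genes 9 were tested, with 4 called lower, against 18.9% of all genes tested, and 1 higher, against 21.5%. Their median difference was -0.12. Over the alternatives 3 to 6 were called lower and 1 or 2 higher, the second of these without replicate 2 of either genotype or without the replicate block. Anxa1, the partner of S100A11 and an anti-inflammatory protein, had 14.07 and 14.17 in E79Q, against 14.94 and 14.85 in WT. The genotypes were far apart, and the difference was -0.78 ± 0.05 (n = 2 pairs, limma adjusted p = 7.57e-09), a normalised count of about 17536 in E79Q and 30205 in WT. Anxa6 differed by -0.61 ± 0.05 and Anxa8, an annexin of stratified epithelium, by -0.56 ± 0.05. Anxa5, which binds phosphatidylserine, was also called lower, at -0.13 ± 0.05 (limma adjusted p = 0.0435). That call was lost under some alternatives, no filter on low values and no mean-variance trend among them. Anxa7 was called higher at 0.26 ± 0.05. Anxa2, the partner of S100A10, was not called, with a difference of -0.11 ± 0.04 (limma adjusted p = 0.0587) and -0.11 in each pair. Some alternatives called Anxa2 lower, median centring and quantile normalization among them.

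Genes of intracellular partners were called in both directions, as were all genes tested (21.5% higher and 18.9% lower). Of 16 genes, 12 were tested, 4 of them called higher and 2 lower, with a median of 0.07. The lower calls numbered 4 without E79Q replicate 2 and 1 with no filter or no mean-variance trend. Il1a, the cytokine whose release S100A13 assists, had 9.92 and 10.06 in E79Q and 9.61 and 9.47 in WT, a difference of 0.45 ± 0.07 (n = 2 pairs, limma adjusted p = 6.63e-05). Ahnak, a giant scaffold held by the S100A10 and annexin A2 complex, differed by 0.29 ± 0.06 (limma adjusted p = 0.00149). It was not called without the replicate block or with robust empirical Bayes, quantile normalization gave 0.17, and its adjusted p ran from 2.39e-05 to 0.1098 over the alternatives. Ppfibp1, liprin beta 1, a binder of S100A4, differed by 0.18 ± 0.05, a call lost without the block (limma adjusted p = 0.0581, range 0.000696 to 0.0581). S100pbp was lower in E79Q at 9.03 and 9.06, against 9.52 and 9.48 in WT (-0.46 ± 0.06, limma adjusted p = 3.07e-05). It is named for binding S100P, which is not among the S100 genes described here. Myh9, the myosin heavy chain bound by S100A4, and Cacybp, the calcyclin-binding protein, were not called (-0.08 ± 0.04 and 0.08 ± 0.05).

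Receptor genes for released S100 proteins had 7 of 11 members tested, with a median of -0.07. Of the 7, 3 were called lower, against 18.9% of all genes tested, and 1 higher, against 21.5%. Ager, the receptor RAGE, lay under the filter. Tlr4, the endotoxin receptor that also responds to S100A8 and S100A9, had 9.06 and 9.22 in E79Q and 8.92 and 8.76 in WT. It was called higher at 0.30 ± 0.08 (n = 2 pairs, limma adjusted p = 0.00492), but not without the replicate block (limma adjusted p = 0.0621, range 0.000178 to 0.0621), and its pairs gave 0.15 and 0.46. On log2(normalised count + 1) Tlr4 differed by 0.50, S100pbp by -0.69, and Sprr1a and Sprr2a3, described further on, by 0.65 and -0.40. Mcam and Emb, adhesion molecules of the immunoglobulin family reported to bind S100A8 and S100A9, were called lower. Mcam had 9.64 in both E79Q libraries and 10.23 in both WT libraries, a difference of -0.59 ± 0.06. Emb had 9.59 and 9.65 in E79Q and 10.22 and 10.17 in WT, a difference of -0.58 ± 0.06. Nptn, a further receptor of that family, was called lower at -0.17 ± 0.06 (limma adjusted p = 0.0251). It lost its call under 5 of 12 alternatives, among them leaving out E79Q replicate 1 (limma adjusted p = 0.0503) or WT replicate 1 (0.0531), and its adjusted p ran from 0.00155 to 0.0819.

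**Figure D4:**
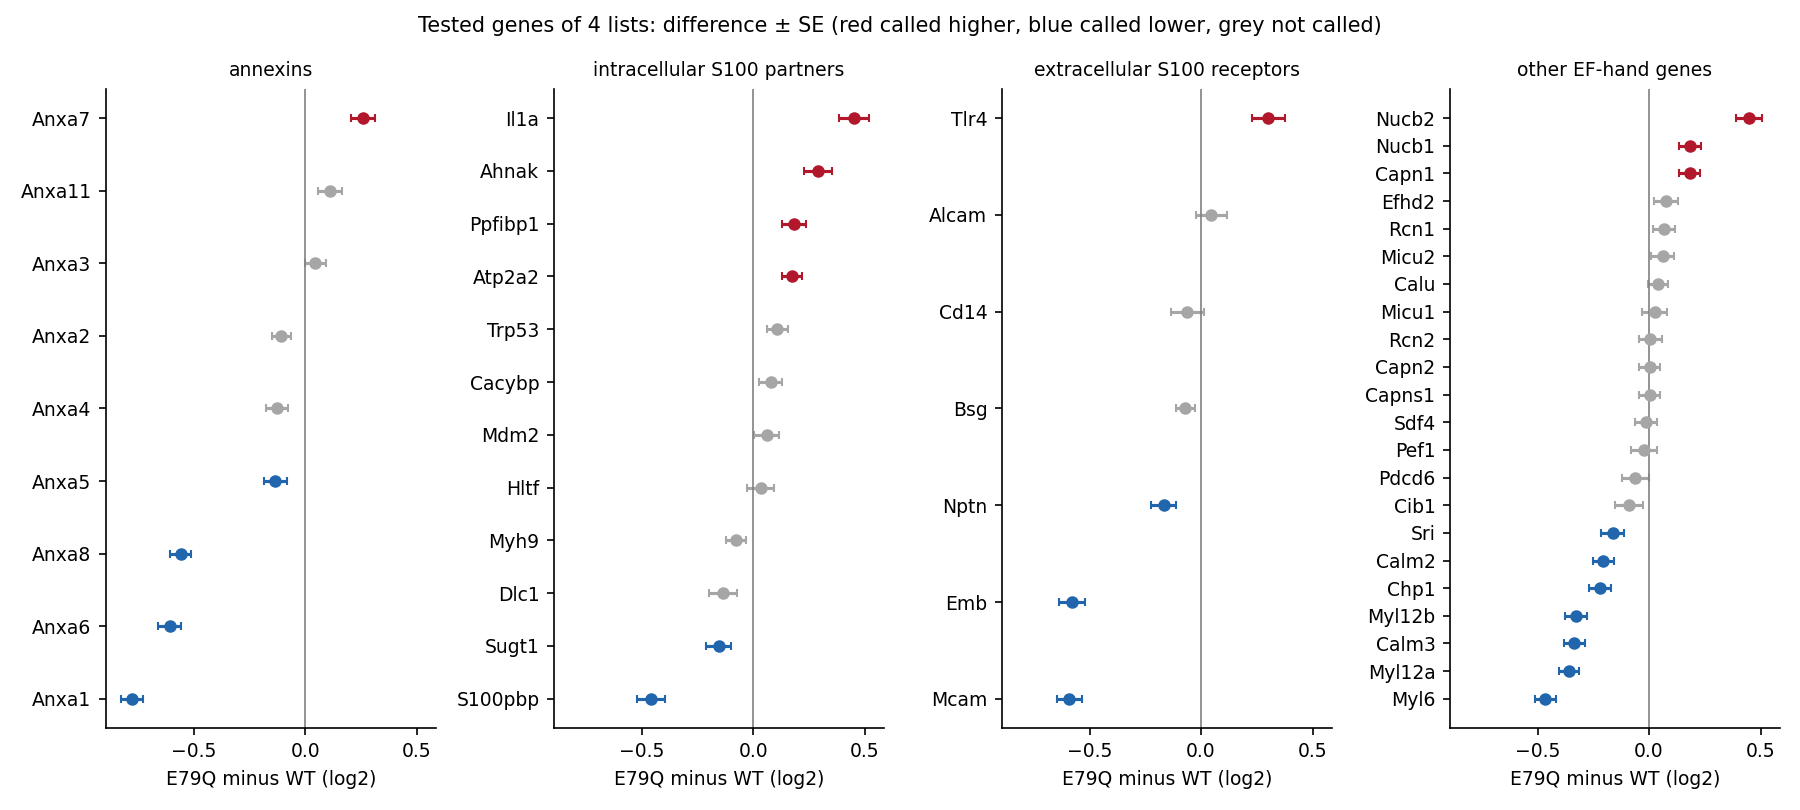
Difference, E79Q minus WT (log2), with SE of the limma fit, for the tested genes of 4 lists, the annexins, intracellular S100 partners, receptors of released S100 proteins and other EF-hand genes. Red marks genes called higher, blue genes called lower and grey genes not called. Anxa1 at -0.78 has the widest difference, and Myl6 at -0.46 has the lowest value among the other EF-hand genes drawn.

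Among other genes with EF-hands, 22 of 30 were tested, with a median of -0.0064. Of the 22, 7 were called lower, against 18.9% of all genes tested, and 3 higher, against 21.5%. Calm3, which encodes the calcium sensor calmodulin, was called lower and had 11.58 and 11.53 in E79Q and 11.87 and 11.92 in WT (-0.34 ± 0.05). Myosin light chains Myl6 and Myl12a were called lower, at -0.46 ± 0.05 and -0.36 ± 0.04, and Myl12a has a near-identical neighbour copy, Myl12b (-0.33 ± 0.05), so their counts are uncertain. Nucb2, nucleobindin 2, was higher at 9.82 and 9.86 in E79Q, against 9.41 and 9.37 in WT (0.45 ± 0.06).

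The cornified envelope genes that share the locus with the S100 cluster were mostly under the filter. Of 42 listed genes 41 have a row, 16 were at the floor in every library and only 3 were tested, with 1 called higher and 1 lower. With no filter 4 were called higher and 2 lower. The stricter filter removed all 3 tested genes, so it could call none of them. Among those under the filter, named after their values were seen, Crct1 had mean normalised counts of 36.7 in E79Q and 7.11 in WT. Sprr3, a cornified envelope precursor of the oesophagus, had 26.9 in E79Q and 5.04 in WT. Others under the filter went the other way, with Sprr1b at 1.04 in E79Q and 13.2 in WT. Sprr2k had 12.9 in E79Q and 27.7 in WT. Sprr1a, a small proline-rich envelope precursor, was called higher with 8.43 and 8.46 in E79Q and 8.18 and 8.15 in WT (0.28 ± 0.07, limma adjusted p = 0.00504). Sprr2a3 was called lower with 8.74 and 8.67 in E79Q and 8.89 and 8.96 in WT (-0.22 ± 0.07), but it belongs to a family of near-identical copies among which reads can be split. Outside the cluster, Chtop, the gene next to S100a1, was not called (0.12 ± 0.05, limma adjusted p = 0.0663), although leaving out replicate 1 of either genotype called it (limma adjusted p of 0.0170 without E79Q replicate 1 and 0.0172 without WT replicate 1), as did the fit without the replicate block (0.0161, range 0.0161 to 0.148). Pglyrp4, next to S100a9, had values between 7.15 and 7.25 and was not tested.

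Markers of other cell types are given beside these results, since S100a4 and S100a6 are also expressed by mesenchymal cells. Of 9 fibroblast markers 2 were tested. Col1a1, a collagen chain, had 7.83 and 7.75 in E79Q and 9.04 and 9.12 in WT. It was called lower at -1.29 ± 0.07 (n = 2 pairs, limma adjusted p = 1.49e-09), a count ratio of 0.128 and -2.94 on log2(normalised count + 1). Fbln1, the extracellular matrix protein fibulin 1, was called higher at 0.26 ± 0.06 and had 9.87 in both E79Q libraries and 9.61 in both WT libraries. The summed fibroblast list was 820 and 830 normalised counts in E79Q and 969 and 973 in WT, with Lum at the floor throughout. Its part in the S100 differences was not tested. Among the keratinocyte markers 3 were called higher, with Dsg3 and Itga6 at 0.74 ± 0.05 and 0.73 ± 0.06, and 3 lower, with Krt15 at -0.58 ± 0.07. Of all genes tested, 21.5% were called higher and 18.9% lower. Markers of Schwann cells and glia, which express S100b, summed to 17.1 and 13.7 normalised counts in E79Q and 15.2 and 20.5 in WT. Muscle markers, listed beside S100a1, summed to 23.2 and 18.9 in E79Q and 21.4 and 30.3 in WT, and endothelial markers to 13.3 and 10.6 in E79Q and 17.0 and 22.4 in WT.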

How the data were processed

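The members, gene lists and tests were chosen with earlier results of these data known. Sample titles gave genotype and replicate number. The design text of the series describes a human cell line. It conflicts with the title and the labels, and these were followed. The authors deposited variance-stabilised log2 values, 1 per gene and library. Salmon 0.11.3, STAR 2.5.2b, build mm9, DESeq2 and DESeq 1.22.2 appear, with no roles, in the submitters' processing notes, and the labels' protocols name TRIzol and a NEBNext Ultra kit. The sources used here give neither strand setting nor annotation. Values run from 6.90 to 18.7, with a floor of 6.98 that 8120 genes hold in all 4 libraries.

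Adding a gene's E79Q and WT values gave 1 total for both replicate numbers (to within 1.31e-13), so the values had been centred by replicate number before deposit. Centring also ties the spread of the 2 E79Q libraries to that of the 2 WT libraries. It makes genotypes that do not overlap the same as 2 pairs with one direction. The replicate numbers were taken to pair the libraries because of the centring. The model was therefore genotype plus a replicate block, in limma 3.58.1 (R 4.3.3), with empirical Bayes moderation along a mean-variance trend, two-sided tests and Benjamini-Hochberg adjustment over all genes with a value at least 1 above the lowest in at least 2 libraries. Calls used an adjusted p below 0.05. Prior degrees of freedom were 14.6, so most of each gene's precision is borrowed from other genes. An exact test of 2 pairs cannot give a two-sided p under 0.5. The steps were also run on simulated data. Far fewer genes were changed there than were called here, so that run does not give the error rate of these data. Alternatives were no block, no filter or a stricter one, median centring, quantile normalization, no trend, robust empirical Bayes, log2(normalised count + 1) and leaving out each library.

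Normalised counts were computed by inverting the stabilisation from the floor. Genes with reads in 1 library only gave whole multiples (tolerance 1e-06) of a unit of 0.901 and 1.07 in E79Q and 0.970 and 1.07 in WT, which set the depth estimates. Counts of single libraries are approximate, since centring moved them, and anything below the floor became 0. The deposited scale compresses changes of low genes. Named genes are the members, other S100 and fused S100 genes, up to 4 called genes with the largest absolute difference per list, checks and chromosome neighbours. Anxa2, Anxa5, Myh9, Cacybp, Ager, Myl12b, Crct1, Sprr3, Sprr1b and Sprr2k are named outside this rule, after their values were seen. So are the markers Ptprc, Ly6g, Mpo and Lum. Gclc, Gclm, Slc7a11, Itgb4 and Keap1 fall under the rule and its counts but are not described. All sample columns of the table were used. One gene of the list of other EF-hand genes is not reported here and was left out of that list's counts. Transcript lengths come from GENCODE vM21 (GRCm38), and no coordinates were joined to the mm9 data.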

Additional observations from a re-analysis of the deposited data

How the results depend on the processing

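Of the 12 alternatives, none changed the direction of a called S100 member. S100a6, S100a10, S100a11 and S100a14 were called under all 12. The fit without the replicate block called 6004 genes in place of 4388 and 5 members lower in place of 4, with 1 higher in both, and it counts 1 residual degree of freedom that centring had already used. No filter on low values and the stricter filter each called 3 members lower and 1 higher. The stricter filter removed S100a1 and S100a13. Leaving out 1 library at a time, in fits of genotype alone, called 5008 to 5463 genes, 4 members lower and 1 higher each time, though the 3 libraries kept still carry the fourth through the centring. S100a11 then ranged from -0.34 to -0.21 and S100a10 from -0.23 to -0.16. Over the 45 named genes tested, 513 of 533 refits kept the side of the threshold, with the direction kept wherever a call was made, 10 ended a call (in S100a13, Ahnak, Ppfibp1, Tlr4 and Nptn), 10 added one (in S100a16, Kdm5d, Nfe2l2 and Chtop) and 0 reversed a call. Anxa2, Anxa5, Myh9, Cacybp and Myl12b, named outside the rule, are not in these counts, and the calls of Anxa2 and Anxa5 also changed. S100a1 was not called in any fit that tested it. Its differences ran from -0.08 to 0.0015 on the deposited scale, positive without replicate 1 of either genotype. On log2(normalised count + 1) its difference was -0.11. Depth limits S100a4, S100a8, S100a9 and the other S100 genes, which rest on few reads.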
